A study of Mus musculus with 7 samples.

Results

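The features described here were the microarray probes that read well above background in satellite cells of geriatric mice and in none of the arrays from young mice. Members were selected on the detection flag of the scanner software. A probe had to be flagged as well above background on at least 0.5 of its spots, on at least 3 of the 4 geriatric arrays and on 0 of the 3 young arrays. Of 55681 probes other than controls, 196 met this rule, under 191 of the 36406 names on the array. Because the flag chose the members, the levels below describe them, and no difference between the age groups is tested on them.

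Satellite cells, which serve muscle as its stem cells, were sorted from dissociated, unchallenged muscle of male C57BL/6 mice. The gate took cells positive for integrin α7 and CD34 and left out cells carrying CD31, CD45, CD11b or Sca1. The mice behind geriatric arrays 1 to 4 were 28, 28, 29 and 30 months old, and those behind young arrays 1 to 3 were 2, 2 and 3 months old. The labels do not say whether mice were pooled, and the p-values of the fit measure only the spread between these samples. The RNA was amplified by a whole-transcriptome method for very small cell populations and labelled with Cy3. Geriatric replicates 1 and 2 carry 1 sample name in their descriptions and differed by less than 2 combined errors for 95.42% of probes, so they were averaged and each group has n = 3 samples.

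Satellite cells rest in quiescence beneath the basal lamina of the myofibre and divide after injury. At very old age they lose regenerative capacity. A flag for a signal above background does not state that a gene is on or off: it asks whether 1 probe stands above the noise around its own spot. A dim transcript can therefore cross it on 1 array and miss it on the next, and a probe reads only the stretch of transcript it matches.

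Levels are log2 of the background-subtracted signal relative to the 75th percentile of the same array, which was 1355 to 1606 intensity units on the geriatric arrays and 1463 to 1636 on the young arrays. The lowest level still flagged as detected, called the floor, was -6.22, -5.37, -5.78 and -5.49 on geriatric arrays 1 to 4, against -5.81, -5.78 and -6.11 on young arrays 1 to 3. Levels under the floor have no order among themselves. The detected probes numbered 38052 to 40999 on the geriatric arrays and 40259 to 41293 on the young arrays. All 14 satellite cell markers of the list used, among them Pax7, the transcription factor that marks these cells, were detected on all 7 arrays. Pax7 was at 4.11 ± 0.22 in geriatric cells and 4.07 ± 0.37 in young cells (SD, n = 3 each).

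Each array probe is a 60-base oligonucleotide. The following 6 belong to the gene with the highest fold bound among the named members, to the one whose geriatric samples lay closest together, to a protein repair enzyme, to the 1 member called in the limma fit below, a call that several alternatives end, and to the 1 gene symbol with a pair of member probes on all 4 geriatric arrays. On mm9, Cyp4f15 was read at chr17:32840088-32840147 (+ strand) and Fam26e at chr10:33811721-33811780 (- strand). Fn3krp was read at chr11:121292014-121292073 (+ strand) and Nell1 at chr7:58118540-58118599 (+ strand). The Ric3 probes lay at chr7:116182322-116182381 and chr7:116178423-116178482 (- strand). Which exon each probe matches was not analysed here.
Cyp4f15: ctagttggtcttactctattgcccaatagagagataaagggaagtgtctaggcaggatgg
Fam26e: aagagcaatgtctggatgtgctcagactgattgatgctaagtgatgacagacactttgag
Fn3krp: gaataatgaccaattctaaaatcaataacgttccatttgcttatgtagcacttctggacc
Nell1: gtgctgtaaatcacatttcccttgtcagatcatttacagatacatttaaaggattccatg
Ric3, probe 1: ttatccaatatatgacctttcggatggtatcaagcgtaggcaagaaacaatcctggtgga
Ric3, probe 2: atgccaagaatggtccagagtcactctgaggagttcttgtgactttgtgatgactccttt

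The members were few and near the limit of detection. Of the 196, 40 were detected on all 4 geriatric arrays and 156 on 3 of them. Another 163 probes were detected on all 4 geriatric arrays and on 1 young array, and 660 on 2 geriatric arrays and 0 young arrays. In the other direction, 175 probes were detected on all 3 young arrays and 0 geriatric arrays. The mean level of the members over the geriatric samples ran from -5.87 to -1.75 with a median of -4.69, so that most of them stood a little above the floors.

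The missing geriatric array was seldom one of the pair that shares a sample name. Of the 156 members on 3 geriatric arrays, 75 were not detected on replicate 4 and 61 not on replicate 3, against 14 not on replicate 2 and 6 not on replicate 1. The arrays of the pair both detected 176 of the 196 members, so most members on 3 arrays were detected in 2 of the 3 samples. The rule counts the pair as 2 arrays, so a probe undetected in that sample usually misses both and is left out. The split between replicates is therefore shaped by the rule and is not read. With the pair as 1 sample and at least 2 of the 3 samples required, 265 probes were members. The pair differed by a median of 0.18 log2 units over the members and by more than 1 unit for 21 of them.

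**Figure D1:**
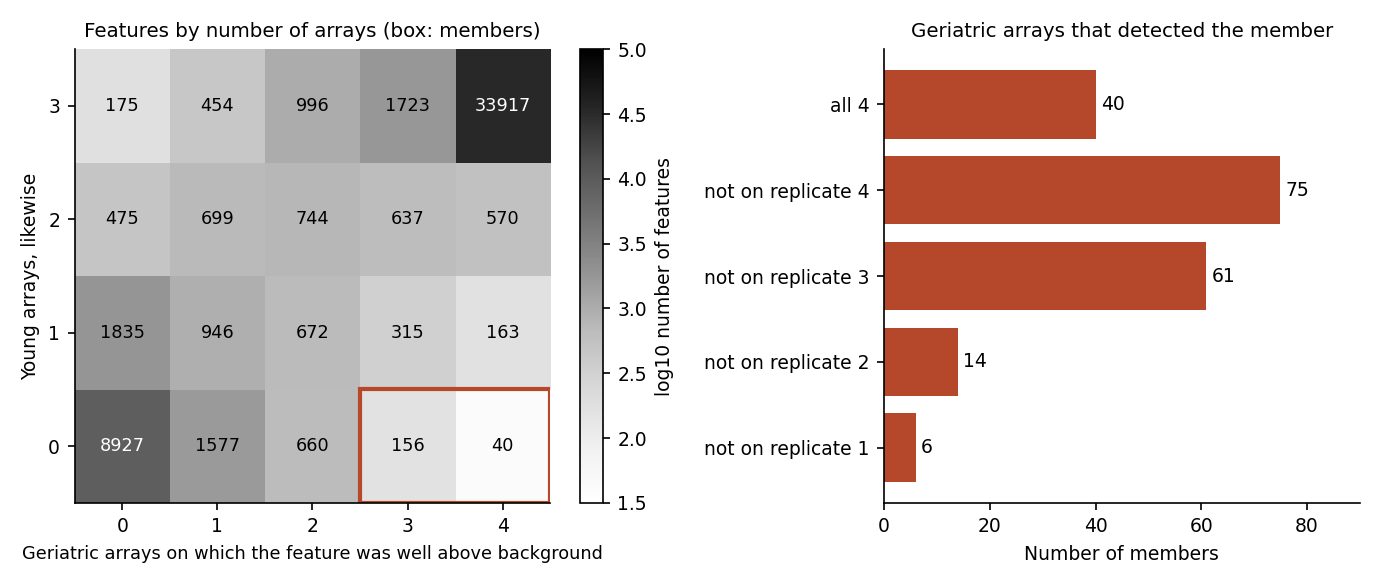
Left, the number of probes by how many geriatric arrays (horizontal) and young arrays (vertical) flagged them as well above background, with a grey scale in log10 units and a box around the 156 and 40 member probes. Right, the members by which geriatric arrays detected them: 40 on all 4, and 75, 61, 14 and 6 missing on replicates 4, 3, 2 and 1.

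In 125 of the 196 members every geriatric sample lay above every young sample, against 6.86% of the 41251 tested probes with a value on every array. The rule used this contrast, so nothing is read from that share. All 40 members detected on 4 geriatric arrays were among the 125. The other 71 were all detected on 3 geriatric arrays, and their overlap rests on an undetected geriatric array set against undetected young arrays, whose levels have no order. In the limma fit over the 41261 probes detected on at least 3 of the 7 arrays, with Benjamini-Hochberg adjustment, 1 member, Nell1, passed the threshold and was higher in geriatric cells, against 0.00242% of all probes tested. Nothing is read from this count either. The limma call of a member was lost (0 called) with the slide row as a block, with the replicate block, with no filter on dim probes, without any one of the 3 young arrays and without geriatric replicate 3 or 4.

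The size of each difference is given as a bound, since a young level below detection has none of its own. The mean level of the 3 geriatric samples was set against the mean over the young arrays of the higher of the array's floor and the probe's own value. The bound was at least 2-fold for 116 members, at least 4-fold for 32 and at least 8-fold for 9, with a median of 2.31-fold. For the 156 members on 3 geriatric arrays, the geriatric mean includes a level below detection, taken as measured. Their values are therefore looser than those of the 40 members on all 4 geriatric arrays. For those 40 the bounds are not strict either. The floor is the lowest flagged level, and undetected probes read up to -5.48, -5.57 and -5.77 on young arrays 1 to 3. The bounds also leave out the spread between samples. In 34 members at least 1 young array read at or above its own floor without being flagged.

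Among the 40 members on all 4 geriatric arrays, 20 carried a gene symbol and stood for 19 genes. Enzymes came first. Cyp4f15, a cytochrome P450 of the fatty acid hydroxylase family, read -0.16, -0.24, -1.90 and -3.16 on geriatric arrays 1 to 4, against -7.85, -7.95 and -8.12 on young arrays 1 to 3. All geriatric values stood far above the young ones, and replicate 4 was the lowest of them. The geriatric mean was at least 17.7-fold higher. Cyp2f2, a cytochrome P450 known for turning naphthalene into a reactive product in the lung, read -4.17, -3.78, -1.53 and -1.46 on the geriatric arrays, against -6.09, -6.97 and -8.30 on the young arrays. Here replicates 3 and 4 were the high ones, the reverse of Cyp4f15, and the bound was 11.9-fold.

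Fn3krp, a kinase that acts on sugar-modified lysines of glycated proteins, read -1.09, -1.07, -2.86 and -2.89 on the geriatric arrays, against -7.93, -7.99 and -8.18 on the young arrays. The pair stood above replicates 3 and 4, which nearly coincided, and the bound was 12.3-fold.

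Secreted and matrix proteins formed the next group. Nell1, a secreted glycoprotein studied in bone formation, read -3.50, -3.49, -4.17 and -3.27 on the geriatric arrays, against -7.87, -7.98 and -8.10 on the young arrays. The SD over the geriatric samples was 0.47, all young values lay below the floors, and the bound was 4.77-fold. Wnt10a, a secreted Wnt ligand, read -3.58, -3.64, -1.57 and -4.76 on the geriatric arrays, against -6.34, -6.80 and -8.29 on the young arrays. Geriatric replicate 3 was the highest of them, and the bound was 6.00-fold.

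Serpina3n, a secreted inhibitor of serine proteases, read -2.28, -2.39, -4.82 and -3.42 on the geriatric arrays, against -7.75, -6.58 and -8.22 on the young arrays, a bound of 5.19-fold. Col4a5, a chain of the collagen IV network of basement membranes, read -2.56, -2.71, -2.26 and -3.56 on the geriatric arrays, against -5.59, -5.75 and -7.90 on the young arrays. Young replicates 1 and 2 of Col4a5 lay above their floors without being flagged, so the gene sat at the edge of detection in young cells. Its bound was 7.998-fold.

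Membrane proteins came next. Fam26e, listed as Calhm5 in the reference and belonging to the calcium homeostasis modulators, read -2.15, -2.17, -2.18 and -1.90 on the geriatric arrays, against -8.01, -8.05 and -6.76 on the young arrays. The geriatric samples lay closer together than in any other of these 20 probes (SD 0.16), and the bound was 14.1-fold. Nrxn3, a neurexin that joins nerve terminals to their targets, read -1.17, -1.22, -3.74 and -1.99 on the geriatric arrays, against -7.12, -6.12 and -6.89 on the young arrays, a bound of 12.03-fold. Ntng1, a netrin-like protein anchored to axon membranes, read -3.84, -3.78, -4.44 and -5.08 on the geriatric arrays, against -5.80, -6.97 and -6.49 on the young arrays, a bound of 2.73-fold. Another Ntng1 probe was detected on all 7 arrays and differed by 0.23, so the bound holds for the member probe only.

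Ric3, a chaperone that helps assemble nicotinic acetylcholine receptors, had 2 member probes. The first read -3.51, -3.67, -4.40 and -2.48 on the geriatric arrays, against -7.97, -8.03 and -8.24 on the young arrays. The second read -4.12, -4.67, -3.61 and -2.70 on the geriatric arrays, against -6.85, -8.00 and -8.20 on the young arrays. Geriatric replicate 4 was the highest with both, and the bounds were 5.31-fold and 5.03-fold. The remaining Ric3 probe was detected on 1 geriatric array and 0 young arrays, at -8.18, -4.44, -7.27 and -5.82 on the geriatric arrays and -7.98, -8.02 and -8.20 on the young arrays.

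Tmem139, a transmembrane protein, read -3.59 to -4.36 over the geriatric arrays and -5.95 to -6.37 over the young arrays, a bound of 3.85-fold. H2-M10.4, a nonclassical MHC class I protein, read -5.54, -3.62, -4.79 and -4.03 on the geriatric arrays, against -6.21, -6.23 and -5.95 on the young arrays. For H2-M10.4 the arrays of the pair, which carry the same sample name, differed by 1.92 log2 units. Its bound was 2.60-fold.

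The remaining gene symbols code for proteins inside the cell or in sperm. Vat1l read -2.50, -2.60, -1.91 and -2.34 on the geriatric arrays, against -7.87, -6.38 and -7.66 on the young arrays, with little spread between geriatric samples and a bound of 12.4-fold. Ldb2, an adaptor of LIM-domain transcription factors, read -3.01, -2.96, -2.93 and -3.66 on the geriatric arrays, against -5.72, -8.03 and -6.17 on the young arrays, a bound of 6.40-fold. Sfmbt2, a Polycomb group protein, read -2.94, -3.31, -4.89 and -4.00 on the geriatric arrays, against -6.24, -8.00 and -7.86 on the young arrays, a bound of 3.72-fold. The pair was the high geriatric sample for Sfmbt2 and replicate 4 the low one for Ldb2. Sos1, an exchange factor that activates Ras, read -4.79 to -3.83 over the geriatric arrays and -7.68 to -5.91 over the young arrays, a bound of 2.79-fold. Zpbp, an acrosomal protein that binds the zona pellucida, read -2.95, -3.17, -4.36 and -5.17 on the geriatric arrays, against -6.33, -6.32 and -6.74 on the young arrays, a bound of 3.25-fold.

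**Figure D2:**
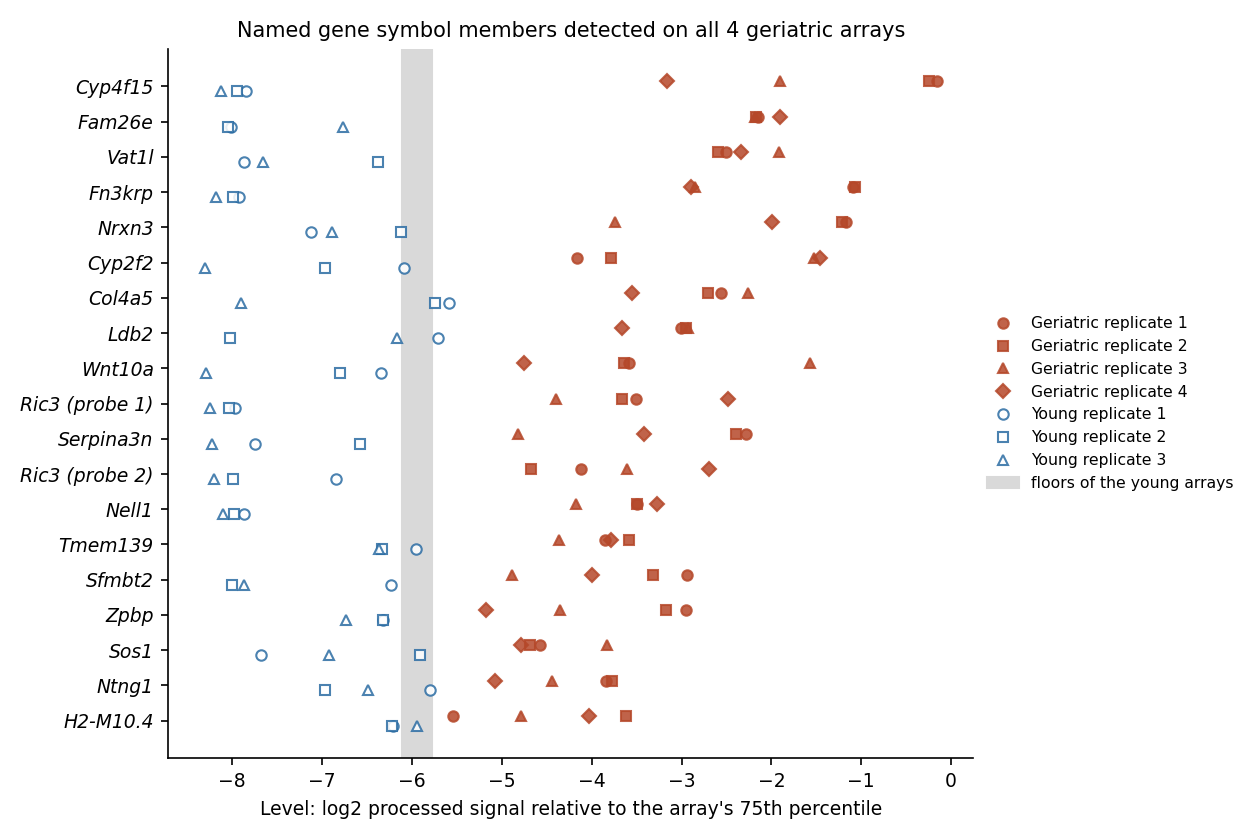
Levels of the gene symbol probes described above that were detected on all 4 geriatric arrays, as log2 processed signal relative to the 75th percentile of the array, with filled marks for geriatric and open marks for young arrays, and a band over the floors of the young arrays (-6.11 to -5.78). Every geriatric value lay right of every young value of the same probe, while the geriatric arrays spanned 3.00 units for Cyp4f15 and 0.28 units for Fam26e.

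Which geriatric sample read highest differed from member to member. The highest geriatric value came from the averaged pair for 85 members, from replicate 3 for 67 and from replicate 4 for 44. Some sample must be the highest for any probe, so nothing is read from this split. The SD between geriatric samples had a median of 1.44 log2 units over the members and 0.80 over the 40 detected on all 4 arrays, against 0.36 over all 41261 probes tested. The rule lets 1 geriatric array fall below detection, which widens that spread by construction for members on 3 arrays. The SDs are also not matched for level: the geriatric mean had a median of -4.69 over the members and -1.36 over all probes tested. The wider spread is therefore not read as a trait of the members.

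Of the 75 gene symbol probes detected on 3 geriatric arrays, those of Mmp12, Fzd10, Unc5c and Spaca1 are described first, and the other genes of this group were singled out after their values were seen. Mmp12, the macrophage elastase, read -5.50, -3.04, -7.29 and -2.78 on the geriatric arrays, against -7.44, -6.23 and -6.12 on the young arrays. Geriatric replicate 3 was below detection like the young arrays, the arrays of the pair stood 2.46 apart, and the bound was 2.17-fold. Fzd10, a receptor for Wnt ligands, read -3.45, -3.73, -6.34 and -4.68 on the geriatric arrays, against -8.01, -7.19 and -8.25 on the young arrays, a bound of 2.04-fold with replicate 3 not detected.

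Unc5c, a receptor for the guidance protein netrin, had 2 member probes, at chr3:141492190-141492249 and chr3:141497142-141497201 (+ strand, mm9). The second read -5.89, -6.30, -3.00 and -3.23 on the geriatric arrays, against -6.93, -8.05 and -8.11 on the young arrays. The first read -5.28, -5.82, -4.07 and -4.01 on the geriatric arrays, against -7.90, -7.97 and -7.16 on the young arrays. Replicates 3 and 4 were the high geriatric samples with both. Spaca1, a protein of the sperm acrosome, also had 2 member probes, at -3.42 and -3.16 on geriatric replicate 1, -3.47 and -3.07 on replicate 2, -7.27 and -7.26 on replicate 3 and -4.75 and -4.37 on replicate 4. On the young arrays the Spaca1 probes read -7.96 and -8.04, -6.49 and -7.10, and -8.19 and -8.23. In geriatric replicate 3 both Spaca1 probes were below detection, as in young cells.

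Cxcl13, a chemokine that attracts B cells, differed widely between geriatric samples. It read -1.67, -1.54, -7.26 and -3.04 on the geriatric arrays, against -8.09, -8.09 and -8.30 on the young arrays. Replicate 3 was below detection like the young arrays, and the other geriatric arrays stood far above the floors. Gria3, a glutamate receptor subunit, had the largest bound of the 156 members on 3 arrays, 6.11-fold, with -2.74, -2.75, -1.45 and -5.67 on the geriatric arrays and -5.82, -6.64 and -8.29 on the young arrays. Mef2c, a transcription factor of muscle differentiation, was highest on replicates 3 and 4, at -5.19, -5.85, -2.94 and -3.49 on the geriatric arrays and -6.84, -7.54 and -8.29 on the young arrays.

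Other gene symbols on 3 geriatric arrays spread over many roles. Secreted factors and matrix proteins among them were Cxcl9, an interferon-induced chemokine, Adm (adrenomedullin), Ntf5 (a neurotrophin), Postn (periostin) and Spock1, a matrix proteoglycan. Surface receptors and channels included Cd274, the ligand of the immune checkpoint receptor PD-1, Cd70, Cysltr2, a leukotriene receptor, Itga9, an integrin subunit, Ntrk3, the receptor of neurotrophin-3, and the potassium channels Kcnc2, Kcnj2 and Kcnk6. Signalling proteins of blood cells included Ptpn6, the phosphatase SHP-1, and Sla, an adaptor. Proteins that handle iron and other metals were Heph, a ferroxidase, Cybrd1, a ferric reductase, and Slc11a1, a metal transporter. Genes best known from sperm or from smell were Ssty2 and Rbmy1a1 of the Y chromosome, the odorant receptors Olfr1184, Olfr918 and Olfr723, and the pheromone receptors Vmn1r35 and Vmn1r167.

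The rule cuts through a continuous range of values. Just inside it, the gene symbols with the smallest bounds were Ntrk3, with -5.06, -5.15, -4.79 and -7.62 on the geriatric arrays and -6.47, -7.82 and -8.26 on the young arrays, Olfr723 and Ints6, with bounds of 1.04-fold, 1.14-fold and 1.18-fold in that order. Just outside it stood Thsd7a, detected on all 4 geriatric arrays and 1 young array, with -2.47, -2.62, -2.95 and -3.25 on the geriatric arrays and -5.45, -8.02 and -8.23 on the young arrays. Kif6, with -4.16 to -3.48 on the geriatric arrays and -8.08 to -5.59 on the young arrays, and Eaf2, with -4.92 to -4.39 and -8.06 to -5.45 in the same order of groups, were also left out for 1 young array. Rnf148, Klf1 and Cntln were left out because only 2 geriatric arrays detected them. Rnf148 read -6.17, -6.51, -3.20 and -2.53 on the geriatric arrays and -5.87, -7.86 and -6.89 on the young arrays. At the edge, then, 1 flag on 1 array decides which side of the rule a probe falls.

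Other probes of the same genes were read in their own right. Of the 92 gene symbols among the members, 54 had 1 probe on the array and 38 had several. For 19 of the 38, another probe was detected on at least 1 young array, and for 12 of these on all 3 young arrays. For the other 19 no probe of the gene was detected in young cells. The 54 further probes of the 38 genes comprised 14 detected on all 7 arrays, 14 detected on none and 26 in between.

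The genes with another probe on all 3 young arrays were therefore present in young cells by that probe. Spg21 read 1.03, 0.94, 0.35 and 0.68 on the geriatric arrays and 1.13, 0.81 and 1.22 on the young arrays with its other probe, a log2 difference of -0.38. The other probe of Cadm3, an adhesion protein of neurons, differed by -0.00079, that of Trank1 by 0.57, that of Ankrd42 by 0.01 and that of Cxcl9 by 0.80. The other probes of Plcb1, a phospholipase C of G-protein signalling, differed by 3.35 and 1.97. Ntng1 and Ntrk3 each had another probe detected on all 7 arrays, which differed by 0.23 and 0.07 in that order. Such probes of Heph differed by 0.24 and 0.47. The member probes of these genes were not detected on the young arrays and have no such difference. Over the 14 other probes detected on all 7 arrays the median difference was 0.36, with 11 higher and 3 lower in geriatric cells. The genes were picked through a member probe on the same arrays, so nothing is read from these counts.

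Other genes had further probes that stayed silent in both groups. Sfmbt2 had 2 other probes and Gria3, Mmp12, Poln, Trpm2 and Vstm2b 1 each, and none of them was detected on any of the 7 arrays. Nrxn3 had 4 other probes, of which 2 were detected on 3 geriatric arrays and 1 young array, 1 on 1 geriatric array alone and 1 on no array. For Ric3 and Unc5c no probe of the gene was detected on a young array.

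**Figure D3:**
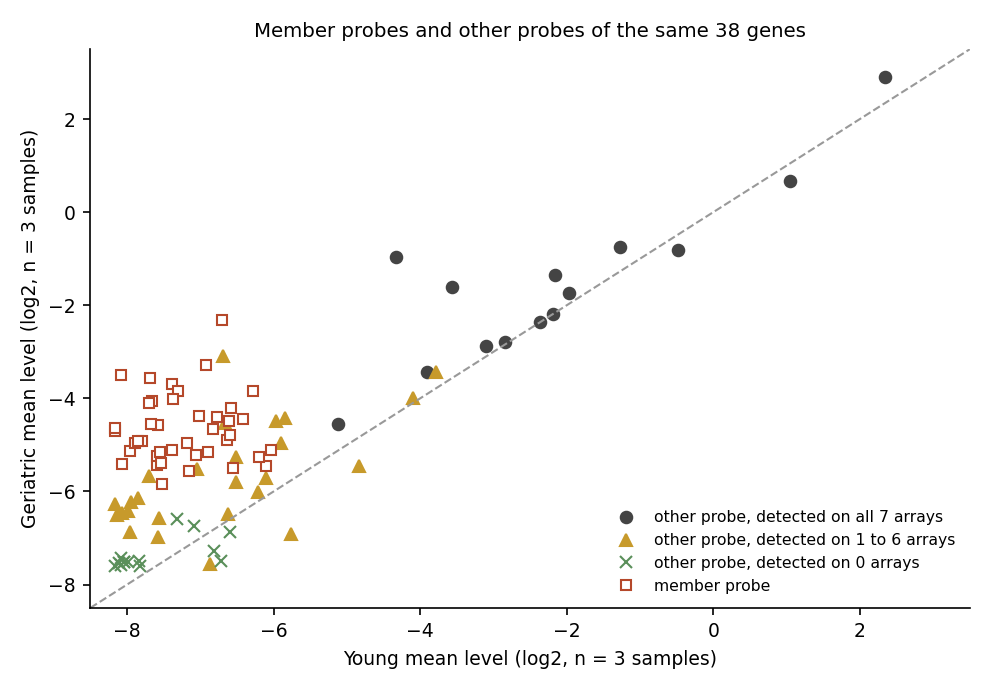
Mean level in geriatric samples (vertical) against young samples (horizontal), both log2 with n = 3 samples, for the member probes (open squares) and all other probes of the same 38 gene symbols; the dashed line marks equal levels. The member probes lie above the line by construction, the 14 other probes detected on all 7 arrays (filled circles) lie near it except those of Plcb1, and the 14 detected on no array (crosses) sit at the lower left.

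Names other than gene symbols made up the other members. Of the 196 probes, 95 carried a gene symbol (48.5%), 48 the position of a long intergenic noncoding RNA (24.5%), 31 a clone, prediction or accession (15.8%) and 22 only a probe identifier (11.2%). Among all probes tested the shares were 47.2%, 29.3%, 14.3% and 9.14% in the same order. Among the 175 probes detected on all young and no geriatric arrays, 33.7% had a gene symbol and 42.9% a lincRNA position. The reference table held 101 of the members, 99 of them as protein-coding genes, and all 95 gene symbols were found in it.

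The largest bound among these names came from the region of Nrxn3. An unnamed probe at chr12:90089531-90089590 on the - strand, between array probes of Nrxn3 on the + strand and 56194 bases from the member probe of that gene, read -2.13, -2.22, -2.44 and -0.77 on the geriatric arrays. It read -8.03, -8.08 and -7.39 on the young arrays, a bound of 17.2-fold. Replicate 4 was its highest geriatric array, whereas the pair was the highest for the Nrxn3 probe. The transcript cluster TC1642106, whose place on chromosome 1 is unassigned in mm9, read -4.88, -4.70, -0.91 and -1.47 on the geriatric arrays, against -6.82, -5.89 and -7.71 on the young arrays, a bound of 11.4-fold. Like Cyp2f2 it was high on replicates 3 and 4.

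The clone 3632451O06Rik, listed as Armh4 in the reference, read -2.79, -2.78, -1.62 and -3.49 on the geriatric arrays, against -7.86, -5.92 and -6.03 on the young arrays, a bound of 9.44-fold. The predicted gene Gm9927 had a bound of 6.39-fold, with geriatric arrays at -4.02 to -2.54 and young arrays at -8.15 to -6.06. The transcript ENSMUST00000161581 had a bound of 6.33-fold, with the pair at -1.84 and -1.98, geriatric replicates 3 and 4 at -3.97 and -3.83, and the young arrays at -7.86 to -6.38. The unnamed probe at chr5:100380052-100380111 had a bound of 5.06-fold, with geriatric arrays at -5.04 to -2.43 and young arrays at -7.12 to -5.94.

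Long intergenic noncoding RNAs, transcripts from between genes that code for no protein, are covered on this array by several probes each. The 48 member probes carried 46 lincRNA names, and 43 of the 46 had other probes. Some of these names cover overlapping positions or both strands of the same region. For 41 of the 43 another probe was detected on at least 1 young array and for 36 on all 3. The 65 other probes of these RNAs detected on all 7 arrays had a median difference of 0.37, with 50 higher and 15 lower in geriatric cells, while the median over all probes tested was -0.0090. The RNAs were picked through a member probe on the same arrays, and probes of the same RNA are not independent. Nothing is read from these counts.

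The densest run of members was on chromosome 3, where 4 member probes under 3 lincRNA names lay within 47926 bases. The position chr3:30107995-30108595_R lies inside chr3:30099759-30133959_R, so these names need not be separate RNAs. The run lay between array probes of Mecom, a transcription factor gene of blood stem cells, whose nearest probe is on the same - strand. Whether the members read Mecom transcript was not tested. A pair of neighbouring probes under 1 of these names, printed below with no capitals, lay end to end at chr3:30107996-30108055 and chr3:30108056-30108115 on the - strand of mm9.
chr3:30107995-30108595_R, probe 1: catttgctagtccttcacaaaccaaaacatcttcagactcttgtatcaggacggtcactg
chr3:30107995-30108595_R, probe 2: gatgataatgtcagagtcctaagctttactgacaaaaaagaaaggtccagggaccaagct

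The first read -4.26, -4.75, -3.26 and -4.17 on the geriatric arrays, against -7.73, -5.92 and -8.07 on the young arrays. The second read -4.58, -4.22, -3.26 and -3.98 on the geriatric arrays, against -6.61, -6.56 and -8.30 on the young arrays. Both peaked in geriatric replicate 3, while the remaining probe of the same RNA was detected on 1 geriatric and 1 young array. The array held 23 probes within 15 kb of this run, of which 19 were no members. Of the 19, 14 were detected on all 4 geriatric arrays, 6 on all 3 young arrays, 10 on 1 or 2 young arrays and 3 on none, and the geriatric mean was higher for 18 and lower for 1. The stretch was picked for holding the most members, so these counts describe it and support nothing. The nearest Mecom probe, detected on 4 geriatric and 2 young arrays, read -3.54, -3.75, -4.75 and -4.16 on the geriatric arrays, against -5.18, -6.13 and -5.26 on the young arrays.

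**Figure D4:**
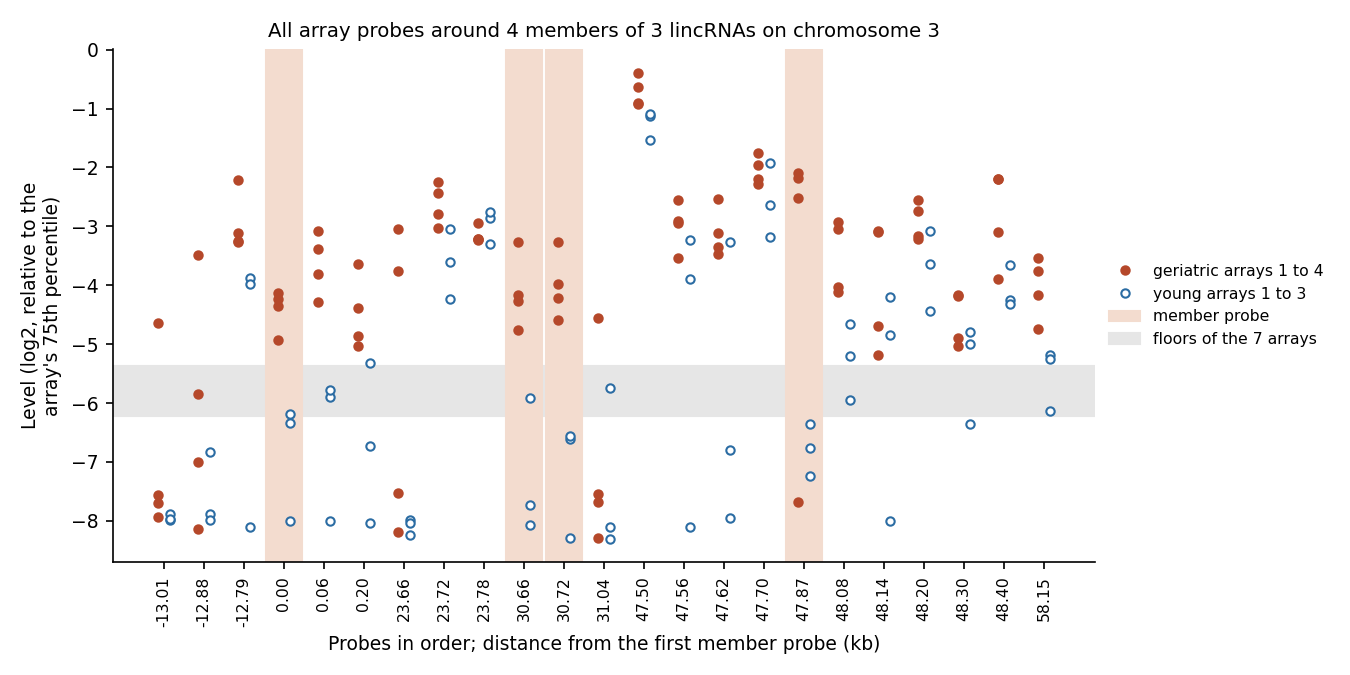
Levels on every array (log2 relative to the 75th percentile) of the 23 probes around the run of members on chromosome 3, in order along the chromosome with the distance from the first member probe in kb below; filled marks are geriatric and open marks young arrays, shaded columns the 4 members, and the grey band the floors of the 7 arrays. In the member columns all young values lie below the geriatric ones except for geriatric replicate 4 in the last, and in most other columns young values reach into or above the band.

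Several member pairs read the same stretch of DNA from opposite strands. In the following lines the capitals mark the bases that a probe shares with the reverse complement of its partner. The first pair lies at chr8:18589670-18589729 and shares all 60 bases. The second pair lies at chr3:45085934-45085993 and chr3:45085918-45085977 and shares 44.
chr8:18587198-18592948_F: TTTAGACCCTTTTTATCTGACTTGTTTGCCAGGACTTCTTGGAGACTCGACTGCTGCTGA
chr8:18587198-18592948_R: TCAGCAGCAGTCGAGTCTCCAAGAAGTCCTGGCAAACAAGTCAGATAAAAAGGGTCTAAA
chr3:45081952-45092352_F: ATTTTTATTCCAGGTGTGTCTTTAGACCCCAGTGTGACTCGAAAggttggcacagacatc
Unnamed probe beside it: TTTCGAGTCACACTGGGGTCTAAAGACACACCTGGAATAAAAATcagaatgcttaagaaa

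On the geriatric arrays the + strand probe on chromosome 8 read -3.32, -3.39, -7.27 and -2.70 and the - strand probe -3.29, -3.42, -7.29 and -2.72. On the young arrays they read -7.80, -6.98 and -6.83 and -8.07, -6.89 and -6.32 in the same order of strands. Both were detected on the same 3 geriatric arrays. Whether they read 1 transcript or 1 from each strand was not tested, so the strand of the signal cannot be told apart here. Such likeness was common on the array and not particular to members. Of 81 tested pairs of opposite-strand probes, 64 differed by under 1 log2 unit, and the median difference was 0.48. The chromosome 3 pair likewise shared its pattern. On the geriatric arrays the + strand probe read -4.12, -4.16, -4.02 and -7.10 and its partner -4.62, -4.46, -4.62 and -7.56, with young arrays at -8.13 to -6.84 and -8.11 to -7.80. Another pair, chr17:56790296-56803875_F and chr17:56791549-56803877_R, shared 20 bases and was likewise missing on geriatric replicate 4 alone.

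The size of the differences depended on the signal scale. The values in this paragraph are differences of measured signal against young signals that were not well above background, so they describe the scales and are not sizes of change, for which only the bounds stand. On the background-subtracted scale the members differed by a median of 2.50 log2 units, from 0.51 to 6.22. In the authors' deposited table the same probes differed by a median of 0.76, from 0.21 to 3.00, and 62 of them by more than 1. Both are differences of geriatric minus young means, and all 196 were positive on either scale. All young arrays and geriatric replicate 1 lay in slide row 1 and the other geriatric arrays in row 2. With the slide row as a block, which leaves 1 geriatric array against the 3 young arrays, the median was 3.15 and 2 of the members were lower in geriatric cells. Geriatric replicate 1 detected 190 of the members. On the authors' scale Cyp4f15 differed by 3.00, Fam26e by 2.44, Fn3krp by 2.39, Nell1 by 1.30 and H2-M10.4 by 0.59. The groups did not overlap for 111 members in the authors' table, against 125 on the background-subtracted scale. The "at least" bounds given above hold for the background-subtracted signal alone. Only for the 40 members detected on all 4 geriatric arrays do they rest on detected geriatric levels alone, and they leave out the spread between samples.

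**Figure D5:**
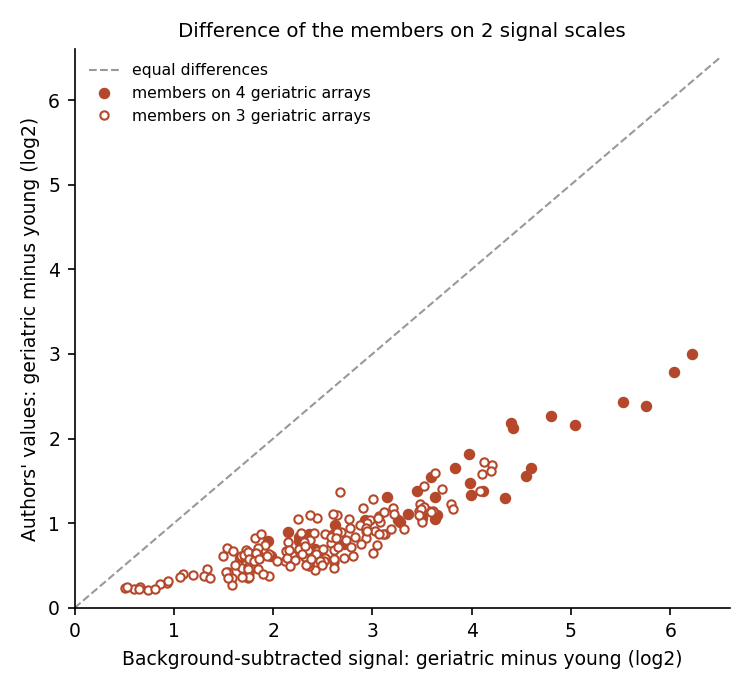
Difference of geriatric minus young means of the 196 members on the background-subtracted scale (horizontal) and in the authors' deposited values (vertical), both log2; filled marks are members on 4 geriatric arrays, open marks members on 3, and the dashed line marks equal differences. All members lie below the line, with medians of 2.50 and 0.76.

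The gene lists were chosen with the members known, so the number of members in them is not read. Of the 5 calcium homeostasis modulators tested, Fam26e was the member and Fam26f lay just outside the rule, detected on 4 geriatric arrays and 1 young array, at -2.93 ± 0.82 in geriatric and -6.66 ± 1.23 in young cells (SD, n = 3). Fam26d was detected on 1 geriatric array and all 3 young arrays and differed by -0.25. Calhm1 and Calhm2, the family members detected on all 7 arrays, differed by -0.46 and 0.43. In limma 0 of the 5 passed, with a median of 0.43. Of the NELL proteins, Nell2 was at -4.70 ± 0.32 in geriatric and -4.69 ± 0.17 in young cells and did not share the pattern of Nell1. Of 30 tested Wnt pathway genes, 17 were higher and 13 lower in geriatric cells, the median was 0.16 and 0 passed in limma, and Wnt10a and Fzd10 were the members. Of 15 tested senescence-associated secreted factors, 12 were higher and 3 lower, the median was 0.61 and 0 passed, and Mmp12 was the member. The 7 CDK inhibitors, all detected on all 7 arrays, held no member, with 5 higher, 2 lower, a median of 0.11 and 0 passed. Their differences ran from -0.85 for Cdkn1c to 2.37 for Cdkn2a. The 21 tested interferon-stimulated genes held none either, with 16 higher, 5 lower, a median of 0.58 and 0 passed.

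None of the 114 genes in the 12 lists of cell type markers was a member. Values of these lists that touch the members are given here because several members are best known from other cells, and the part of such cells in the members' signal was not tested. The summed linear signal of the 12 fibro-adipogenic progenitor markers, relative to the 75th percentile, was 56.7 to 65.2 on the geriatric arrays and 44.2 to 59.8 on the young arrays, with 9 detected on all 7 arrays and Pdgfra on none. Of the 11 tested, 9 were higher and 2 lower in geriatric cells, with a median difference of 0.72, the highest of the 12 marker lists, and 0 passed in limma. The largest differences were 2.45 for Mfap5, a microfibril protein, and 1.56 for Dcn (decorin). Mfap5 read -2.63, -2.76 and -5.88 on the young arrays. Dcn read 2.48, 2.58, 4.35 and 4.29 on the geriatric arrays and 2.45, 2.54 and 1.52 on the young arrays. The 2 lower ones were Col3a1, at -0.14, which made up 34.8% to 62.7% of the sum, and Col1a1, at -0.01. Gsn differed by 0.02 and Clec3b by 0.05. The 7 adipocyte markers summed to 0.83, 0.99, 0.80 and 3.04 on geriatric arrays 1 to 4 and 0.71 to 0.77 on the young arrays, with Lep on none. The high sum on replicate 4 came from Fabp4, a fatty acid binding protein, which was at 1.17 there and not detected on the other geriatric arrays. Some endothelial markers were also high on replicate 4, and others were not. Pecam1, which codes for CD31, read -5.87, -6.42, -6.46 and -0.89 on the geriatric arrays and -3.74, -2.91 and -5.95 on the young arrays. Tie1 read -8.27, -7.66, -7.32 and -1.08 on the geriatric arrays and -8.10, -8.10 and -7.54 on the young arrays. Tek read 3.41, 3.48, 2.87 and 2.99 on the geriatric arrays and made up 68.1% to 89.8% of the endothelial sum. That sum was 11.9, 12.4, 8.54 and 11.7 on geriatric arrays 1 to 4 and 7.87 to 9.84 on the young arrays. Of the 10 endothelial markers tested, 5 were higher and 5 lower in geriatric cells, with a median difference of 0.07. The 12 macrophage and monocyte markers on the array summed to 87.5 to 112.7 on the geriatric arrays and 90.3 to 100.2 on the young arrays, and Lyz2, Mrc1, C1qa and C1qc were detected on none. Itgam, which codes for the CD11b that the sort selected against, made up 94.8% to 95.6% of that sum on every array and differed by 0.06 between the groups. The 10 lymphocyte markers summed to 1.70 to 1.85 on the geriatric arrays and 1.51 to 1.66 on the young arrays, with Cd3g, Cd3d and Ms4a1 among those on none. In such bulk samples fewer cells of a type and less RNA per cell cannot be told apart.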

How the data were processed

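The authors' spot intensity values were extracted by Agilent's Feature Extraction software (10.7.3.1), as deposited: per the file headers, the processed signal had its background subtracted and was detrended within the array, and each spot carried a flag for being well above background. The authors' deposited value table held log2 values that were not centred by gene (median 8.02 for young replicate 1) and followed the log2 mean signal of the same array (r of at least 0.9995 across probes). Its software and background correction are not given in the sources used here. All arrays lay on 1 slide with 1 scan date. Young replicates 1 to 3 and geriatric replicate 1 lay in slide row 1 and geriatric replicates 2 to 4 in row 2.

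Outlier spots and control spots were left out, spots of a probe were averaged, and log2 of the processed signal was set relative to the 75th percentile of the array. Geriatric replicates 1 and 2 were averaged on their shared name. Their levels correlated at r = 0.9883 across probes and 95.42% lay within 2 combined errors, against 0.942 to 0.967 and 59.9% to 66.9% for other pairs. Differences over all 41261 probes detected on at least 3 arrays were fitted with limma 3.58.1 in R 4.3.3 (Benjamini-Hochberg, adjusted p of 0.05, 2-sided), tested on simulated data first. Replicate numbers do not pair the samples: deviations of same-numbered samples correlated at -0.04, 0.06 and 0.01. The number of arrays limits the precision.

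The members and lists were chosen with earlier results of these data known. Named genes were the 20 gene symbol probes on all 4 geriatric arrays with the largest bounds, genes with 2 member probes, members of the lists, the 6 other names with the largest bounds and 3 gene symbols at each edge of the rule. Probes on chromosome 18 are counted and their sequences not shown. A few genes that the rule names are counted but not reported here. The array files give mm9 coordinates, and gene names were checked against the GRCm38.p6 reference table. Python 3.11.15 and matplotlib 3.10.9 served for the figures.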

Additional observations from a re-analysis of the deposited data

How the results depend on the processing

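The member count depended on the detection rule. It was 40 when all 4 geriatric arrays had to detect a probe and also 40 when the averaged pair counted as 1 sample and all 3 samples were required, against 196. Leaving out 1 young array gave 316 to 412 members. Leaving out 1 geriatric array gave 315 to 718, with detection required on at least 2 of the 3 remaining geriatric arrays. That is a looser rule, so these counts do not show the effect of the missing array alone. The median difference of the members was 0.76 after normexp background correction and 0.76 in the authors' values. It was 3.15 with the slide row as a block and in slide row 1 only, which both set 1 geriatric array against 3 young arrays and where 2 members turned lower in geriatric cells, 2.87 with the replicate block and 2.15 without the averaged geriatric sample. Leaving out 1 array gave 2.45 to 2.85. In limma, 1 member was called in the fit used, 13 with 7 arrays as separate samples, 2 with the brightest probe of each name, and 0 with the slide row as a block, in slide row 1 only, with the replicate block, with no filter on dim probes and without the averaged geriatric sample. Leaving out 1 array gave 0 to 2. Over all probes 6 were called, against 2 with normexp, 2 in the authors' values and 104 with 7 arrays as separate samples. The limma count over all probes was 0 with the slide row as a block (2493 probes at an unadjusted p under 0.05), 0 with the replicate block (3523), 0 with no filter on dim probes (4623) and 0 without the averaged geriatric sample (3163). Leaving out 1 array gave 0 to 6. In slide row 1 the lone geriatric array is assumed to vary like the young arrays. The replicate numbers do not pair the samples. Signal near the floor limits every member.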
